A study of Mus musculus with 11 samples.

Results

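Transcripts of the proteasome were examined in mouse macrophages cultured with or without the matrix protein CYR61. The genes were chosen by name: every protein-coding row whose symbol begins with Psma, Psmb, Psmc, Psmd or Psme followed by a digit, which gave 45 of the 55487 gene IDs of the table. By role, 3 of them are the catalytic subunits of the immunoproteasome (Psmb8, Psmb9 and Psmb10), 2 encode the activator PA28 alpha and beta (Psme1 and Psme2), and 31 are constitutive subunits of the core or the cap. A further 5 encode assembly chaperones or other activators, and 4 are tissue-restricted, a retrocopy or not a proteasome gene. There were 4 libraries of bone marrow-derived macrophages given 0.5 µg/ml CYR61 for 24 h, and 7 control libraries given none. CYR61, also called CCN1, is secreted into the extracellular matrix and signals through integrins. In both groups the marrow came from C57BL/6J mice 2 to 5 months old, and the cells grew for 5 to 6 days in medium with 10% CMG-conditioned medium before a change to 2%. The labels do not say whether controls received a vehicle, nor which libraries share a mouse or a culture. The p-values therefore measure the spread between libraries alone, and that spread may be technical.

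The proteasome degrades proteins tagged with ubiquitin. Its core is a barrel of alpha and beta rings whose proteolytic sites lie on the beta subunits Psmb5, Psmb6 and Psmb7, and its cap recognises, unfolds and feeds in the substrate. In cells exposed to interferon, newly built barrels take up Psmb8 in place of Psmb5, Psmb9 in place of Psmb6 and Psmb10 in place of Psmb7, and the PA28 activator can bind the barrel ends. This immunoproteasome is known for making peptides that fit MHC class I molecules, and macrophages express it without stimulation.

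The promoter windows of the 5 immunoproteasome genes are shown because all 5 were higher with CYR61, and that of Psmb5 because it is the constitutive counterpart that also rose. Each window runs from 250 bases before the annotated start to 50 after it, on the strand of the gene, from RefSeq on GRCm38.p6. The windows are chr17:34197945-34198244 on the plus strand for Psmb8, chr17:34187281-34187580 on the minus strand for Psmb9 and chr8:105938343-105938642 on the minus strand for Psmb10. Those of the activator genes are chr14:55578244-55578543 on the plus strand for Psme1 and chr14:55591052-55591351 on the minus strand for Psme2, the first of 2 windows listed for that gene. The window of Psmb5 is chr14:54617946-54618245 on the minus strand. Capitals mark matches, on either strand, to the GAS motif TTCNNNGAA (the interferon gamma-activated site), the ISRE core (GAAA, any 2 bases, GAAA, bound by IRF proteins) or the ARE core TGACNNNGC (bound by NRF1 and NRF2).
Psmb8: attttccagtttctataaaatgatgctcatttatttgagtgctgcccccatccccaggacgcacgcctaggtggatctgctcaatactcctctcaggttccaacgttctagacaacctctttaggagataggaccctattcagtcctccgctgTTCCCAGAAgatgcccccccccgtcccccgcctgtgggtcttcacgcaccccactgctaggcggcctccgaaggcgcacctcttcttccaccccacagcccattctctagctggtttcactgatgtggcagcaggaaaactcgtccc
Psmb9: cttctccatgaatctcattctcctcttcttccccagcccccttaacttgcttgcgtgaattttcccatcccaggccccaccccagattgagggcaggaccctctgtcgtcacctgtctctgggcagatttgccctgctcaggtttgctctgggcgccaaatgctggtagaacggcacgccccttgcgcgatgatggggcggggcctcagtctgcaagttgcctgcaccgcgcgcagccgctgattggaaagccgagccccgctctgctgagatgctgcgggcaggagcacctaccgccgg
Psmb10: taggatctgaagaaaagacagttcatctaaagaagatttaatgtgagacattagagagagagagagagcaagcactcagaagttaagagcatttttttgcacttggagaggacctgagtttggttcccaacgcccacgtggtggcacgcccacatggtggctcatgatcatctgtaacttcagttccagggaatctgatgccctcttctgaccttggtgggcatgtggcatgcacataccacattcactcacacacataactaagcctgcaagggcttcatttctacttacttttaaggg
Psme1: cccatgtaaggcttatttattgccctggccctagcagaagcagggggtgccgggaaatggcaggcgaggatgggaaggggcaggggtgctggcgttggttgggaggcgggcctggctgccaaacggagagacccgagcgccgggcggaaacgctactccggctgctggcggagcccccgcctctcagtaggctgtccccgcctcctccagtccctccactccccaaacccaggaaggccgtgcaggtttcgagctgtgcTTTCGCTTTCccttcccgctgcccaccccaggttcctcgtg
Psme2: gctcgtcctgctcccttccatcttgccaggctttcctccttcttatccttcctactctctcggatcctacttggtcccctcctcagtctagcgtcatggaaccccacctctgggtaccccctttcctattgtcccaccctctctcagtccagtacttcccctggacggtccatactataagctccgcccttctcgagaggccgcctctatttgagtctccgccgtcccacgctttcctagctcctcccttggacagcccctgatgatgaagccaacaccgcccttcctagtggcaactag
Psmb5: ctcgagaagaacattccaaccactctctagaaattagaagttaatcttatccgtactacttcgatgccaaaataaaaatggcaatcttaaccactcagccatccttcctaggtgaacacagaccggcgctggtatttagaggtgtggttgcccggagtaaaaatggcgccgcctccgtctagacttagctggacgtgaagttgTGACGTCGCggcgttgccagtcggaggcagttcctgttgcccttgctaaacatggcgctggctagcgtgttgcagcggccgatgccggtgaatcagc
Each of these windows held at most 1 match, so none overlapped. The Psmb8 window held a GAS match that begins at its base 154, 97 bases before the start. The Psme1 window held an ISRE match on the opposite strand beginning at base 260, within the first transcribed bases, and the Psmb5 window an ARE match at base 204. The windows of Psmb9, Psmb10 and Psme2 held no match to these letters. Of all 32851 promoter windows in the table, 8.30% held a GAS match, 3.44% an ISRE match and 12.4% an ARE match. The 38 proteasome genes with a window had 41 windows, of which 2 held GAS, 4 ISRE and 6 ARE. A match is a description of letters and not evidence of binding. The Psmb9 window shared 275 of its 300 bases with that of Tap1, which runs the other way.

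Library totals were 17390294 to 20760369 estimated counts in the CYR61 group and 14912152 to 21047692 in the control group. Values below are CPM, counts per 1000000 counts of a library scaled with TMM factors, and tests are those of edgeR's quasi-likelihood model over 15135 genes with Benjamini-Hochberg adjustment and a threshold of 0.05. Over all genes tested, 806 were higher and 398 lower with CYR61, and 529 higher and 938 lower when libraries were scaled by their totals alone. With that scaling the log2 fold change of the median gene was -0.05, against -0.01 with TMM. Proteasome genes took up 0.253 to 0.255% of all counts in CYR61 libraries and 0.236 to 0.252% in control libraries, before any such scaling, and these ranges did not overlap. CYR61 replicate 1 stood apart in its share of mitochondrial counts, at 0.953% against 1.32 to 1.39% in the other CYR61 libraries and at least 1.24% in controls, and the part of this in the results was not tested. CYR61 replicate 4 stood apart in its counts over all genes: the chi-square per gene between it and the other CYR61 libraries was 17.6 to 30.4, against 3.30 to 8.37 among those and 2.78 to 9.81 between controls. Of the 12 proteasome genes called higher below, 10 kept the call without CYR61 replicate 1 (15 called) and 7 without replicate 4 (7 called), and in both cases 4 of the 5 immunoproteasome genes were called, all but Psme1. Over all genes tested, 5.42% were higher without CYR61 replicate 1 and 4.52% without replicate 4, against 5.33% with all libraries. In bulk libraries, fewer cells of a type and less RNA per cell cannot be told apart.

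CYR61-treated macrophages had slightly more mRNA for the proteasome. With all libraries in edgeR, 4 of the 5 immunoproteasome genes had larger changes than any constitutive subunit. That ranking was lost without CYR61 replicate 1, where the log2 fold change was 0.262 for Psmb2 and 0.253 for Psmb8, the highest of the 5. In the authors' deposited comparison Psmb2 (0.230) likewise exceeded all of the 5 but Psmb8 (0.265). With all libraries in edgeR, all 5 immunoproteasome genes rose, by 1.10 to 1.21-fold, as did 5 of 31 constitutive subunits. In all, 12 of 44 proteasome genes tested were higher (edgeR, adjusted p under the threshold) and 0 were lower, where 5.33% of all genes tested were higher, 2.63% lower and 7.96% either. At an unadjusted p under the threshold, edgeR had 21 proteasome genes higher and 0 lower, against 1692 higher and 1402 lower of the 15135 genes tested. DESeq2 and limma-voom also called 0 lower after adjustment, with 15 and 10 higher. The median log2 fold change was 0.10 over the 44 genes, against -0.01 over all genes tested, and 40 of the 44 were above 0 (33 with library totals alone), against 47.5% of all genes. All 4 CYR61 libraries lay above all 7 controls for 8 proteasome genes, against 4.64% of all genes, and below all controls for 0, against 2.5% of all genes. The count of 12 was sensitive to scaling and to single libraries: it was 5 with library totals alone, and 7 without CYR61 replicate 2, 4 without replicate 3 and 7 without replicate 4. In the same order, the share of all genes tested that were higher also fell, to 3.5, 3.81, 4.01 and 4.52%, from 5.33%.

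**Figure D1:**
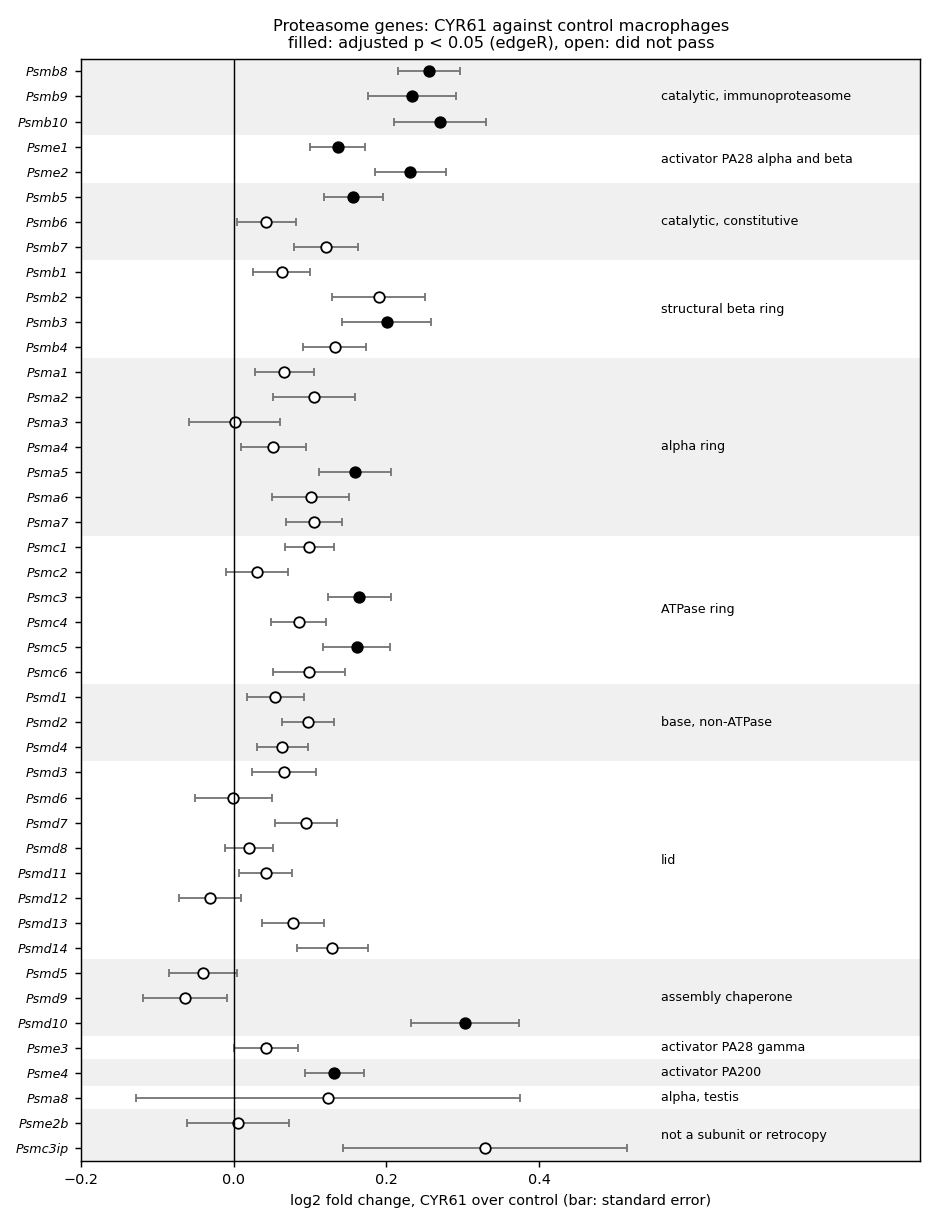
Log2 fold change of the 44 proteasome genes tested, CYR61 over control, on the horizontal axis, with standard errors as bars and genes grouped by role down the page. Filled points passed the threshold in edgeR; all 12 lie to the right of 0, and the 5 immunoproteasome genes at the top are among them.

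Psmb8, which encodes the catalytic subunit beta 5i (LMP7), stood at 107, 106, 106 and 107 CPM in the CYR61 libraries, against 83.9 to 101 CPM in the controls with a median of 87.8. The groups did not overlap, and the CYR61 libraries were closer together than the controls, in which replicate 7 stood apart at 101 CPM and the other 6 lay at 83.9 to 90.2. The mean was 106.7 ± 0.719 CPM with CYR61 and 89.3 ± 5.60 in controls (SD, n = 4 and n = 7), a log2 fold change of 0.26 ± 0.04 (SE; edgeR, Benjamini-Hochberg adjusted p = 0.000463). Psmb8 kept its call under all 20 alternatives, with adjusted p-values up to 0.00221.

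Psmb10 encodes beta 2i (MECL-1). It measured 70.2, 58.0, 59.4 and 57.0 CPM with CYR61, against 44.5 to 54.1 CPM in controls with a median of 51.4. Every CYR61 library was above every control, and CYR61 replicate 1 was the highest. The rise was 1.21-fold (61.1 ± 6.10 CPM against 50.6 ± 3.75 CPM; edgeR, adjusted p = 0.00798), and its call was kept under all 20 alternatives. Without CYR61 replicate 1 the log2 fold change of Psmb10 was 0.198, against 0.270 with all libraries. That fit gave the highest adjusted p of the 20 alternatives (edgeR, adjusted p = 0.0301). Psmb9, which encodes beta 1i (LMP2), had 40.3, 38.1, 39.7 and 39.2 CPM in CYR61 libraries, against 28.8 to 36.8 CPM in controls with a median of 33.8. Here too the groups were apart, with the controls spread more widely (SD 0.925 CPM with CYR61 and 3.02 CPM in controls). Its rise was 1.18-fold (edgeR, adjusted p = 0.0168) and missed the threshold only without CYR61 replicate 3 (adjusted p = 0.0508; range over the 20 alternatives 0.00376 to 0.0508). Psmb9 and Tap1 overlap head to head in the GENCODE annotation. The labels do not state a stranded library, so reads from the shared stretch cannot be assigned to one or the other.

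The PA28 alpha and beta genes also rose. Psme2 (PA28 beta) had 57.8, 57.3, 52.1 and 51.4 CPM with CYR61, against 43.7 to 51.8 CPM in controls with a median of 46.4. The groups touched: control replicate 7, at 51.8, was above CYR61 replicate 4, at 51.4. The log2 fold change was 0.23 ± 0.05 (SE; edgeR, adjusted p = 0.00389), a call kept under all 20 alternatives. Psme2 has a near-identical retrocopy, Psme2b, and the deposited values of both were mostly not whole numbers, as happens when reads are divided between features, so the split between them is uncertain. Psme2b averaged 23.0 ± 2.06 CPM with CYR61 and 22.9 ± 1.79 CPM in controls and did not pass (edgeR, adjusted p = 0.977). With the counts of both summed, which was tried after the data were seen, the log2 fold change of Psme2 was 0.16 (edgeR, adjusted p = 0.0124). Psme1 (PA28 alpha) had 95.1, 94.3, 91.9 and 92.4 CPM with CYR61, against 80.9 to 93.4 CPM in controls with a median of 84.0. Its rise was the smallest of the 5, at 1.10-fold (edgeR, adjusted p = 0.0276), and it was lost in 7 of 20 alternatives, among them library totals alone (adjusted p = 0.125) and the removal of any 1 CYR61 library or of control replicate 3 or 5 (adjusted p 0.0501 to 0.0816).

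**Figure D2:**
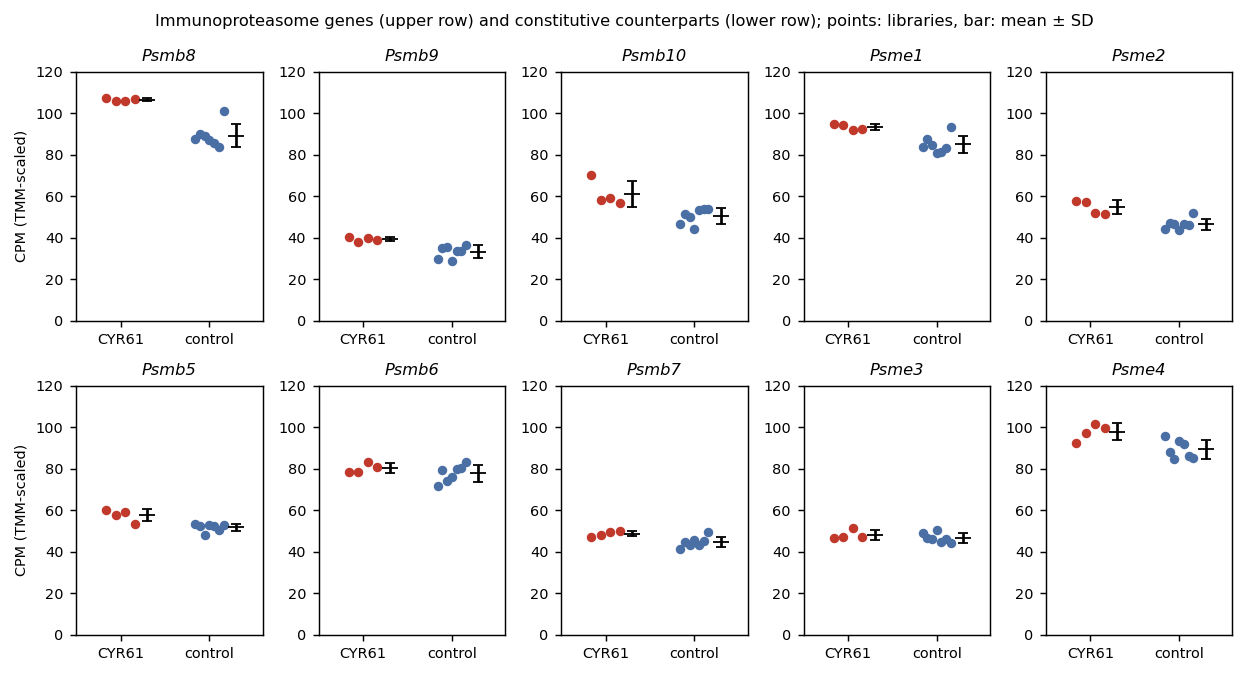
TMM-scaled CPM of the immunoproteasome genes (upper row) and of their constitutive counterparts and Psme4 (lower row), with CYR61 libraries on the left of each panel and controls on the right. Points are libraries and bars mean ± SD; in Psmb8 the CYR61 libraries lie at 106 to 107 CPM, above all 7 controls.

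The constitutive catalytic subunits were measured beside the subunits that replace them. Psmb5, the chymotrypsin-like subunit, had 59.9, 58.0, 59.2 and 53.5 CPM with CYR61, against 47.9 to 53.3 CPM in controls with a median of 52.7. It rose as well, with the groups apart by a narrow margin (1.11-fold; edgeR, adjusted p = 0.0159). That call was lost in 4 of 20 alternatives, among them library totals alone (adjusted p = 0.0990) and without CYR61 replicate 2 (adjusted p = 0.0519) or 3 (adjusted p = 0.0624; range over the 20 alternatives 0.00504 to 0.0990). Psmb7, the trypsin-like subunit, averaged 48.8 ± 1.38 CPM with CYR61 and 44.8 ± 2.48 CPM in controls, which did not pass (edgeR, adjusted p = 0.0948). Psmb7 passed in 3 of 20 alternatives, among them without control replicate 7 (adjusted p = 0.0166, range over the 20 alternatives 0.0166 to 0.267). Psmb6, the caspase-like subunit, averaged 80.3 ± 2.32 CPM with CYR61 and 77.8 ± 4.03 CPM in controls (log2 fold change 0.04 ± 0.04 SE; edgeR, adjusted p = 0.595). Its groups overlapped and its sign turned with library totals alone, at a log2 fold change of -0.0021.

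Ratios of counts within a library do not depend on the scaling between libraries, so each immunoproteasome subunit was divided by its counterpart, and 5 ratios were compared by two-sided exact permutation over all 330 splits (smallest p 0.00303). All 5 ratios were on average higher with CYR61, and 1 of them passed. Psmb9 to Psmb6 stood at 0.513, 0.486, 0.476 and 0.485 with CYR61, against 0.380 to 0.481 in controls with a median of 0.423. A single control, replicate 3, lay within the CYR61 range. The log2 ratio differed by 0.20 ± 0.05 (SE; exact permutation p = 0.00909, adjusted over the 5 ratios p = 0.0455). The call was lost when any CYR61 library or control replicate 1, 2, 4, 5 or 6 was left out (adjusted p 0.0833 to 0.208). Reads from the stretch that Psmb9 shares with Tap1 cannot be assigned here either, and the Psmb9 counts were not whole in any library.

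Psmb8 to Psmb5 was 1.85 ± 0.0997 with CYR61 and 1.73 ± 0.115 in controls, and 2 controls exceeded the lowest CYR61 library. The log2 difference of 0.10 ± 0.05 (SE) did not pass (exact permutation p = 0.0970, adjusted p = 0.144). Psmb10 to Psmb7 differed by 0.15 ± 0.09 on the log2 scale (exact permutation p = 0.115, adjusted p = 0.144). Its CYR61 values ran from 1.13 to 1.48 and its control values from 0.976 to 1.23, with replicate 1 alone above all the controls. The activator genes were set against Psme3, which encodes PA28 gamma, a nuclear relative. Psme2 to Psme3 differed by 0.19 ± 0.09 (exact permutation p = 0.0606, adjusted p = 0.144) and Psme1 to Psme3 by 0.10 ± 0.06 (exact permutation p = 0.206, adjusted p = 0.206), both on the log2 scale with SE. Without control replicate 7 the difference of Psme2 to Psme3 was 0.23 and passed (exact permutation, adjusted p = 0.0476). That 4 ratios missed the threshold does not show that the paired genes moved alike.

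**Figure D3:**
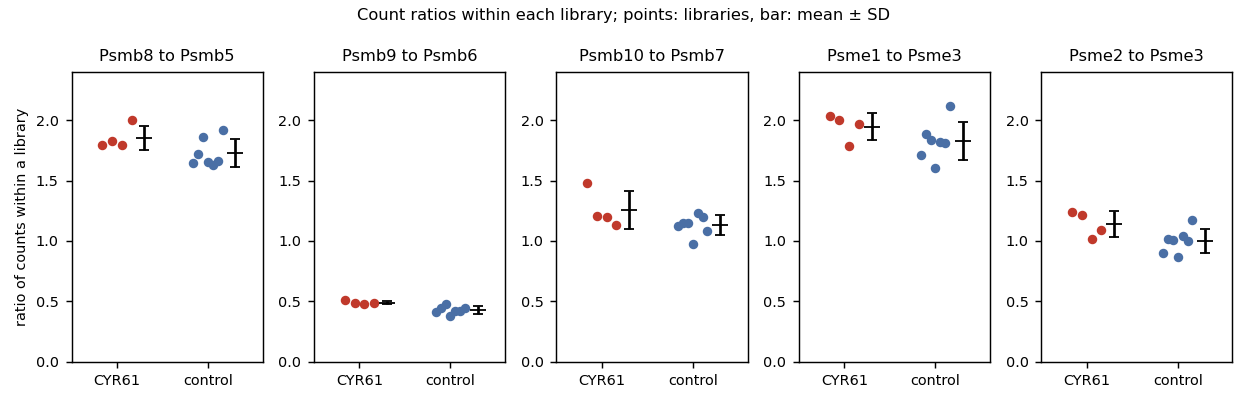
Ratio of the counts of each immunoproteasome gene to its counterpart within each library, not corrected for gene length, with CYR61 on the left and control on the right of each panel and mean ± SD as bars. For Psmb9 to Psmb6 the CYR61 libraries lie at 0.476 to 0.513 and 1 of 7 controls reaches into that range.

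Expressed per kilobase of exon, 2 of the 3 catalytic pairs had close levels in these macrophages and the pair of Psmb9 and Psmb6 did not. In CYR61 libraries Psmb8 averaged 65.5 ± 0.442 CPM per kb and Psmb5 64.1 ± 3.17, and in controls Psmb8 averaged 54.9 ± 3.44 and Psmb5 57.5 ± 2.13. Psmb10 stood at 46.6 ± 4.65 CPM per kb with CYR61 and 38.6 ± 2.86 in controls, beside Psmb7 at 42.1 ± 1.19 with CYR61 and 38.6 ± 2.13 in controls. Neither pair differed beyond its spread in the controls. Psmb9 was the lowest of these 6 catalytic subunits, at 29.1 ± 0.684 CPM per kb with CYR61 and 24.7 ± 2.23 in controls, and Psmb6 the highest of all proteasome genes, at 100.6 ± 2.91 with CYR61 and 97.5 ± 5.05 in controls. Psme1 (84.0 ± 1.35 CPM per kb with CYR61, 76.5 ± 3.86 in controls) stood above Psme2 (56.0 ± 3.47 with CYR61, 47.7 ± 2.70 in controls). Psme3 was lower than both in either group, with 17.5 ± 0.850 CPM per kb in controls. Exon lengths came from GENCODE M21 and may differ from the authors' annotation, so such levels are approximate.

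In the rest of the core barrel, Psmb3 and Psma5 rose. Psmb3, a beta ring subunit without a proteolytic site, had 41.9, 39.7, 43.0 and 43.5 CPM with CYR61, against 30.6 to 40.1 CPM in controls with a median of 37.2. Control replicate 1 was the lowest and replicate 5 reached above CYR61 replicate 2, so the groups overlapped (1.15-fold; edgeR, adjusted p = 0.0435). Psma5, in the alpha ring that gates the barrel, had 29.9, 30.5, 33.3 and 33.6 CPM with CYR61, against 27.1 to 30.1 CPM in controls with a median of 28.0 (1.12-fold; edgeR, adjusted p = 0.0466). Library totals alone ended both calls (adjusted p = 0.102 for Psmb3 and 0.126 for Psma5) and limma-voom that of Psma5. The call of Psmb3 was also lost without CYR61 replicate 1, 3 or 4 or control replicate 3, 4 or 6 (adjusted p 0.0568 to 0.119), and that of Psma5 without CYR61 replicate 2, 3 or 4 or control replicate 1, 2, 3, 5 or 6 (adjusted p 0.0556 to 0.156). In the structural beta ring, Psmb4 averaged 63.5 ± 1.46 CPM with CYR61 and 57.8 ± 3.33 CPM in controls without overlap (edgeR, adjusted p = 0.0591), and Psmb2 56.0 ± 6.16 CPM with CYR61 and 49.0 ± 3.23 CPM in controls (edgeR, adjusted p = 0.0693). Neither passed, though DESeq2 called both. Psmb4 passed in 6 of 20 alternatives, among them without control replicate 6 (adjusted p = 0.0388) or 7 (adjusted p = 0.0430). Psmb2 passed in 7 of 20, among them without CYR61 replicate 1 (adjusted p = 0.00348) or control replicate 7 (adjusted p = 0.0205). All 7 alpha ring genes had log2 fold changes above 0, from 0.0012 for Psma3 to 0.16 for Psma5, and with library totals alone that of Psma3 was -0.04 while the other 6 stayed above 0.

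The cap of the proteasome consists of a base and a lid. In the base, within the ring of 6 ATPases that unfold the substrate, Psmc3 and Psmc5 rose and 4 did not pass. Psmc3 had 88.1, 90.5, 90.6 and 87.7 CPM with CYR61, against 70.1 to 86.4 CPM in controls with a median of 81.3, and Psmc5 had 40.6, 39.9, 42.8 and 43.3 CPM with CYR61, against at most 39.2 CPM in controls with a median of 37.1. Neither gene's groups overlapped (both 1.12-fold; edgeR, adjusted p = 0.0194 for Psmc3 and 0.0295 for Psmc5). Library totals alone ended both calls (adjusted p = 0.0707 for Psmc3 and 0.0893 for Psmc5). The call of Psmc3 was also lost without CYR61 replicate 2 (adjusted p = 0.0654) or 3 (adjusted p = 0.0639), and that of Psmc5 without CYR61 replicate 3 or 4 or control replicate 1 or 5 (adjusted p 0.0502 to 0.0994). Psmc1, another ATPase, had 63.9, 68.5, 70.8 and 68.4 CPM with CYR61, against 62.2 to 65.8 CPM in controls, and did not pass (edgeR, adjusted p = 0.0723) but did without CYR61 replicate 1, its lowest CYR61 library (adjusted p = 0.0137). In edgeR 0 of the 3 non-ATPase base genes and 0 of the 8 lid genes passed, where 5.33% of all genes tested were higher. Before adjustment, 1 base gene and 2 lid genes were higher at a p under the threshold, against 1692 of the 15135 genes tested. A difference between base and lid was not tested. DESeq2 called Psmd2, of the base, and no lid gene, and limma-voom called 0 of either. The median log2 fold change was 0.05 for the lid, which carries the deubiquitinase Psmd14, and 0.16 for the structural beta ring.

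Among genes that assist or regulate the proteasome, Psmd10 had the largest called rise. Psmd10 encodes gankyrin, an assembly chaperone of the base that is also known to bind CDK4 and MDM2. It had 14.2, 15.4, 14.3 and 15.8 CPM with CYR61, against 10.0 to 13.0 CPM in controls with a median of 12.6, on 244 to 313 counts with CYR61 and 179 to 272 counts in controls. The groups were apart, and the 1.23-fold rise (log2 fold change 0.30 ± 0.07 SE; edgeR, adjusted p = 0.0109) kept its call under all 20 alternatives, the highest adjusted p being 0.0492. The other chaperones of the base, Psmd5 and Psmd9, had log2 fold changes of -0.04 and -0.06 and did not pass. Psme4, which encodes the activator PA200, averaged 97.8 ± 4.10 CPM with CYR61 and 89.3 ± 4.36 CPM in controls with overlap (edgeR, adjusted p = 0.0456). That call was lost in 12 of 20 alternatives, among them limma-voom, library totals alone (adjusted p = 0.194) and the removal of CYR61 replicate 2, 3 or 4 or control replicate 2, 3, 5, 6 or 7 (adjusted p 0.0546 to 0.156). Psme3 averaged 48.1 ± 2.25 CPM with CYR61 and 46.7 ± 2.26 CPM in controls and did not pass (edgeR, adjusted p = 0.634); its sign turned with library totals alone, at a log2 fold change of -0.0026.

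The remaining genes were low or not proteasomal. Psmb11, the catalytic subunit of the thymus proteasome, had 1 count in CYR61 replicate 1 and 0 in the other 10 libraries, and was too low to test. A count of 0 allows up to 3 counts, 0.140 to 0.197 CPM by library, which covers counting error only. Psma8, an alpha subunit of testis, had 13 to 20 counts with CYR61 and 9 to 22 in controls (edgeR, adjusted p = 0.842). Psmc3ip fits the name pattern but encodes a recombination cofactor, and it averaged 1.72 ± 0.265 CPM with CYR61 and 1.37 ± 0.272 CPM in controls (edgeR, adjusted p = 0.346).

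The members of each set were also followed library by library. CYR61 replicate 1 was the highest CYR61 library for all 5 immunoproteasome genes and the lowest for 15 of the 31 constitutive subunits. Its median deviation from the control mean was 0.28 for the first set and 0.04 for the second, on the log2 CPM scale. In the other 3 CYR61 libraries these medians were 0.18 to 0.23 and 0.10 to 0.11. Among controls, replicate 7 was the highest for 4 of the 5 immunoproteasome genes and for 14 of the 31 constitutive subunits, with medians of 0.15 and 0.07. Control replicate 1, which had the fewest counts, was the lowest control for 20 of the 31. Without control replicate 7 the number of proteasome genes called higher was 16, and without control replicate 1 it was 10. Over all genes tested, 6.01% and 4.87% were higher in these 2 fits. The genes of both sets were otherwise steady, with a coefficient of variation over controls of 1.90 to 9.04% and a median of 4.74%.

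**Figure D4:**
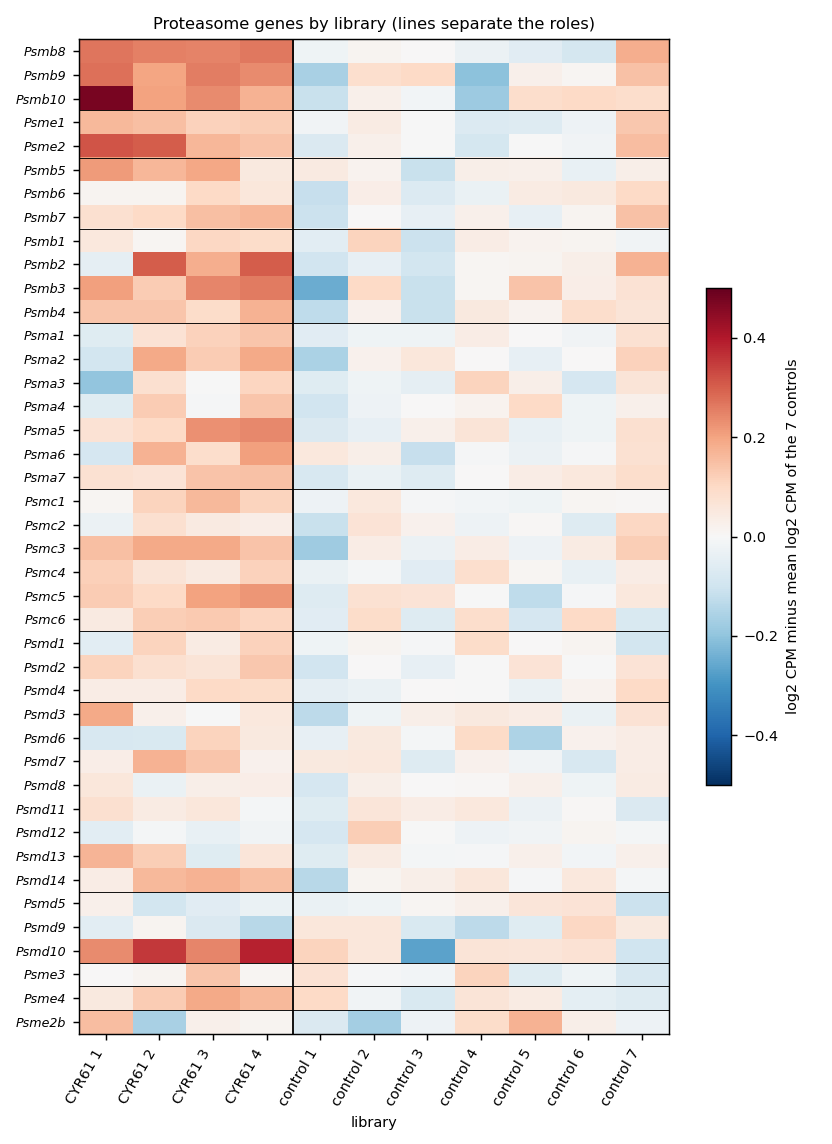
Log2 CPM of 42 proteasome genes in each library minus the mean log2 CPM of the 7 controls, with CYR61 libraries on the left, genes by role down the page, and red for higher. Psma8 and Psmc3ip, at low counts, are not drawn; CYR61 replicate 1 is darkest in Psmb10 and lies below the control mean in 5 of 7 alpha ring genes.

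Genes that act around the proteasome were counted in 4 lists, beside 5.33% higher and 2.63% lower over all genes tested. Before adjustment, edgeR put 1692 of the 15135 genes tested higher and 1402 lower at a p under the threshold. Of 7 genes of the transcription of proteasome genes, 4 rose and 0 fell in edgeR, DESeq2 and limma-voom alike (0 lower at an unadjusted p under the threshold), with a median log2 fold change of 0.12. Irf1, which acts in the interferon response at immunoproteasome promoters, rose 1.19-fold (80.9 ± 2.57 CPM with CYR61 and 68.1 ± 2.05 CPM in controls; edgeR, adjusted p = 6.53e-05). Nlrc5, the transactivator of MHC class I genes, rose 1.18-fold (edgeR, adjusted p = 0.00366). Nfe2l1 encodes NRF1, which raises constitutive subunit genes when proteolysis falls short, and it rose 1.09-fold (217 ± 8.32 CPM with CYR61 and 200 ± 3.82 CPM in controls; edgeR, adjusted p = 0.0199), a call lost in 3 of 20 alternatives, among them library totals alone (adjusted p = 0.159) and without CYR61 replicate 1 (adjusted p = 0.0503). For each of these 3 genes all CYR61 libraries were above all controls. Nfe2l2, Ddi2 and Ngly1 did not pass.

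Of 11 genes of peptide loading, the step that receives the peptides, 8 rose and 0 fell in each of the 3 tools (0 lower at an unadjusted p under the threshold), with a median log2 fold change of 0.19; over all genes tested 5.33% were higher and 2.63% lower. Calr (calreticulin) rose 1.32-fold, Tapbp (tapasin) 1.24-fold, Tap1 (a subunit of the peptide transporter) 1.19-fold and the class I heavy chain gene H2-K1 1.16-fold. Pdia3 (ERp57) averaged 348 ± 12.6 CPM with CYR61 and 289 ± 8.32 CPM in controls (edgeR, adjusted p = 3.25e-05). Tap1 averaged 87.9 ± 5.45 CPM with CYR61 and 73.9 ± 6.44 CPM in controls, and control replicate 7, at 87.3 CPM, lay within the CYR61 range (edgeR, adjusted p = 0.00828). Erap1, B2m and Canx rose by 1.08 to 1.14-fold, and library totals alone ended the calls of B2m (adjusted p = 0.0900) and Canx (adjusted p = 0.203). That of Erap1 was lost in 3 of 20 alternatives, among them without CYR61 replicate 2 (adjusted p = 0.0619). That of B2m was lost without CYR61 replicate 2, 3 or 4 or control replicate 1, 3, 4, 5 or 6 (adjusted p 0.0544 to 0.156), and that of Canx without CYR61 replicate 2, 3 or 4 or control replicate 1, 2, 3 or 5 (adjusted p 0.0552 to 0.127). Tap2, Tapbpl and H2-D1 did not pass. Of 14 ubiquitin supply and delivery genes 2 rose and 0 fell in each of the 3 tools, against the same 5.33% higher and 2.63% lower over all genes tested. By the unadjusted p of edgeR 4 were higher and 2 lower, against 1692 higher and 1402 lower of all 15135 genes tested. The risers were Vcp, an unfoldase that hands substrates to the proteasome (1.09-fold; edgeR, adjusted p = 0.00743), and Uba1, the main ubiquitin-activating enzyme (1.08-fold; edgeR, adjusted p = 0.0156). Both calls ended with library totals alone (adjusted p = 0.0811 for Vcp and 0.134 for Uba1), and that of Uba1 without CYR61 replicate 2 (adjusted p = 0.0642). Of 12 assembly factors and other subunits tested, 0 passed in either direction in edgeR, DESeq2 or limma-voom, with 2 at an unadjusted p under the threshold, both higher. Proteasome maturation protein (Pomp), which assembles the barrel, had a log2 fold change of 0.07 (edgeR, adjusted p = 0.345).

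In the authors' deposited table, 20 of the 44 proteasome genes listed were higher at an adjusted p under 0.05 and 0 were lower. Of its 14044 genes, 1730 passed in either direction. Of these, 1108 (7.89% of all its genes) were higher and the rest lower. Of the 12 genes called here, 11 were among those 20, and Psmb3 was not (adjusted p = 0.0535 in the authors' deposited table). That table also has Psmb2 (log2 fold change 0.23), Psmb4 (0.13) and Psmb7 (0.14) as higher, and Psma2, Psma6, Psma7, Psmc1, Psmd2 and Psmd14.

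The label of the cells was checked against markers. The 8 macrophage markers summed to 24679 to 26893 CPM in CYR61 libraries and 22311 to 23703 CPM in controls. Most of these sums came from Lyz2, which averaged 19541 CPM with CYR61 and 17224 CPM in controls. Of the 8 markers, 5 rose (Adgre1, Csf1r, Fcgr1, Itgam and Lyz2), where 5.33% of all genes tested were higher. Cd68, Mertk and Cd14 did not pass. Whether the shift in macrophage markers has a part in the proteasome results was not tested. Dendritic cells and lymphocytes are rich in immunoproteasome, and their markers were near 0. The 7 dendritic cell markers summed to 1.33 to 2.05 CPM with CYR61 and 1.47 to 2.41 CPM in controls, the 5 B cell markers to at most 0.941 CPM with CYR61 and 0.950 CPM in controls, and the 6 T and NK cell markers to at most 0.222 CPM with CYR61 and 0.448 CPM in controls. Pax5, Cd3e, Cd3g, Ncr1 and Trbc2 were among the genes with 0 counts in every library. Neutrophil markers summed to 1.61 to 2.12 CPM with CYR61 and 0.784 to 1.39 CPM in controls. Most of this came from S100a8, which rose (1.69 CPM with CYR61 and 0.969 CPM in controls on average). S100a9 averaged 0 CPM with CYR61 and 0.014 CPM in controls, and Ly6g was at 0. Fibroblast markers summed to at most 1.63 CPM with CYR61 and 1.64 CPM in controls. The 4 endothelial markers summed to 116 to 137 CPM with CYR61 and 143 to 157 CPM in controls, nearly all from Vwf, which fell, while Cdh5 averaged 0.340 CPM with CYR61 and 0.325 CPM in controls. The part of these shifts in the proteasome results was not tested.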

How the data were processed

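RNA was sequenced after ribosomal RNA removal as paired 150-base reads, per the labels' protocols. The authors deposited estimated counts (expected counts) per Ensembl gene, not normalized, of which 88.6 to 89.4% per library were whole numbers. DRAGEN is named in the submitters' processing notes, without its role; build and annotation are not stated. The authors also deposited a comparison table with log2 fold changes and log2 CPM per library, p-values and adjusted p-values, and scores (t, log odds, signed fold) by a method that is not stated. Its 44 proteasome genes were set beside the fit.

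The 55774 rows held 55487 gene IDs; 287 repeated rows with identical values were dropped. Counts were rounded and fitted in edgeR 4.0.16 (R 4.3.3): filterByExpr, TMM, glmQLFit and glmQLFTest on 4 CYR61 and 7 control libraries without covariates, two-sided. The biological coefficient of variation was 5.64%. Standard errors are the log2 fold change over the root of F. The count ratios were compared by exact permutation in Python. The fit and the permutation were tested on simulated data. Alternatives were DESeq2 1.42.0, limma-voom (limma 3.58.1), RLE factors, library totals alone, all genes with a count, a floor of 1 CPM on the mean, a fit to protein-coding genes, the replicate number as a block in 8 libraries, those 8 without it, and leaving out each library. Within groups, no pair of libraries was as close as sampling noise allows (chi-square per gene of at least 2.78).

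The genes, lists and tests were chosen with earlier results of these data known. Named genes are the 5 immunoproteasome genes, their counterparts and Psme4, every other proteasome gene past the threshold, the 3 of lowest p that missed it, genes too low to test, and list genes past the threshold. Other members of the lists and of the roles were named after their values were seen. Paaf1 was in a list and is not analysed here, and the values of some list genes are not reported here.

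Of the 36 constitutive subunit and immunoproteasome genes, Psme1 and Psme2 included, 16 had values that were not whole in some library, as arises where reads are shared. Their counts ran from 320 to 4439 per library. Besides Psmb9 with Tap1, GENCODE M21 places, among others, Psmb7 over Nek6, Psmc3 over Slc39a13, Psme1 over Emc9 and Psmd13 over Sirt3 on opposite strands, so reads there cannot be told apart. Interval floors cover counting error only.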

Additional observations from a re-analysis of the deposited data

Results flagged for a closer look

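Among 46 groups of libraries looked at for the named proteasome genes and ratios, 3 held a library far from the others by Dixon's criterion, where chance gives about 5%. Psmb8 was at 101 CPM in control replicate 7, against 83.9 to 90.2 CPM in the other controls. Psme3 was at 51.4 CPM in CYR61 replicate 3, against 46.7 to 47.1 CPM in the other CYR61 libraries. Psmc1 was at 65.8 CPM in control replicate 2, against 62.2 to 63.8 CPM in the other controls.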

How the results depend on the processing

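Of the 12 proteasome genes called higher, Psmb8, Psmb10, Psme2 and Psmd10 kept the call under all 20 alternatives of the fit. No alternative called a proteasome gene lower. The number called higher was 5 with library totals alone and ran from 4 to 16 as single libraries were left out, and the count over all genes from 788 (without CYR61 replicate 2) to 1372. Over all genes tested, the share higher was 3.5% with library totals alone and 3.81 to 6.01% as single libraries were left out. With DESeq2 the number of proteasome genes called higher was 15 and included all 12. Library totals alone turned the sign of Psmb6 (-0.0021) and Psme3 (-0.0026), and also of Psma3, Psme2b, Psmd8, Psmc2 and Psmd11, none of them called. Same-numbered libraries did not deviate together over all genes: the correlation of same-numbered deviations was -0.03, 0.02, -0.04 and 0.04. Not every library correlated best with its own number. These correlations cannot show whether libraries share a mouse or a culture, which the labels do not say. With the replicate block, 13 proteasome genes were higher (8 of the 12), against 14 in the same 8 libraries without it (9 of the 12). The block ended the calls of Psmb5 (adjusted p = 0.0661) and Nfe2l1 (adjusted p = 0.0628), which those 8 libraries gave without it (adjusted p = 0.0473 and 0.0430), and those 8 libraries ended the calls of Psma5, Psmc5, Psme4, Erap1 and Canx with the block (adjusted p 0.0632 to 0.177) and without it (adjusted p 0.0681 to 0.137), and of B2m without it (adjusted p = 0.0673). The log2 difference of Psmb9 to Psmb6 was 0.19 with the numbers as a replicate block (exact sign-flip test, adjusted p = 0.250, where 4 pairs give no less than p = 0.125) and 0.17 to 0.22 as libraries were left out. For the other ratios the ranges were 0.0655 to 0.13 for Psmb8 to Psmb5, 0.06 to 0.19 for Psmb10 to Psmb7, 0.0653 to 0.14 for Psme1 to Psme3 and 0.15 to 0.24 for Psme2 to Psme3, the last of which passed without control replicate 7 (0.23). Where a call changed, the cause was not tested. Unrounded counts and an offset of 0.5 counts changed no call among the 5 ratios.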
